A study of Rattus norvegicus with 3 samples.

Results

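Adenosine is a signalling nucleoside of the brain, and 7 genes of its formation, sensing, transport and removal are described here across the cells of the rat nucleus accumbens. They are Nt5e, Adora1, Adora2a, Adora2b, Slc29a1, Adk and Ada, matched by gene symbol in the feature lists, 7 of 23098 listed genes. The set was chosen by function, but Ada was selected on these data, because its level was higher in D1 neurons of high anxiety rats. The Ada levels of those neurons are therefore a description of what chose the gene. All 7 genes had counts in every library.

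The measurements were single-nucleus RNA sequencing of nucleus accumbens punches from outbred Wistar rats, sorted by behavioural anxiety tests. The first group was high anxiety rats given urolithin A for 2 months, the second was high anxiety rats without treatment, and the third was low anxiety rats without treatment. Urolithin A is a metabolite that gut bacteria make from plant ellagitannins, known for promoting the removal of damaged mitochondria. Each group was 1 library of nuclei pooled from 5 hemispheres at 16 weeks of age, so the groups have no biological replicate here, and how many animals gave the hemispheres and their sex are not given in the sources used here. A difference between groups cannot be told apart from a difference between 2 pools of tissue, and no p-value is given.

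After filtering, 3421 nuclei of the urolithin A library, 3694 of the high anxiety library and 3379 of the low anxiety library were used, with median depths of 4726, 4549.5 and 3952 UMIs per nucleus (unique molecular identifiers, each counting 1 captured RNA molecule). The libraries shared 4 to 6 cell barcodes per pair. Nuclei were clustered without the 7 genes, and clusters were named from marker genes, so that each class is marker-defined and carries the suffix "-like". The level of a gene in a class is its share of the class's UMIs times 1000000 (counts per 1000000, CPM). Ratios between libraries carry an exact 95% interval that covers counting error only. A gene is called measured when at least 1 of the 2 libraries had 100 UMIs of it in the class, and past the threshold when the ratio reached 1.5-fold. The nucleus accumbens is made up mainly of medium spiny neurons. Drd1, the D1 dopamine receptor, stood at 204, 227 and 235 CPM in D1-like neurons of the urolithin A, high anxiety and low anxiety libraries. Eccentric-like neurons, a further spiny type, had as much Drd1, at 235, 230 and 256 CPM, so Drd1 alone did not separate these classes. Drd2 stood at 474, 572 and 525 CPM in D2-like neurons.

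As background, the ectoenzyme CD73, encoded by Nt5e, cuts extracellular AMP to adenosine. Adenosine then acts on G-protein-coupled receptors: the receptor encoded by Adora1 lowers cyclic AMP, while those encoded by Adora2a and Adora2b raise it. Adora2a is best known from the striatum, where its receptor sits on D2 spiny neurons, opposes dopamine there, and is blocked by caffeine. The equilibrative transporter encoded by Slc29a1 carries adenosine across the cell membrane. Inside the cell adenosine kinase, encoded by Adk, phosphorylates it to AMP, and adenosine deaminase, encoded by Ada, turns it into inosine.

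Each of the 7 genes had its own distribution over the 9 classes in the plot of levels by class. Adora2a was concentrated in D2-like neurons, Adora2b in astrocyte-like cells, Slc29a1 in microglia-like cells and at lower levels in neurons, Nt5e in oligodendrocyte-like cells, Adora1 in oligodendrocyte precursor-like cells, and Adk in astrocyte-like cells and D2-like neurons. Ada was found mostly in neurons. Over all neuron clusters Ada stood at 18.0, 21.8 and 8.40 CPM in the urolithin A, high anxiety and low anxiety libraries, against 2.31, 0.640 and 3.55 CPM over the glial classes, where it rested on 6, 2 and 8 UMIs. Microglia-like nuclei, with median depths of 1879, 1889 and 1599 UMIs, had 0 Ada UMIs, which allows a level of up to 9.20, 6.01 and 9.09 CPM in the urolithin A, high anxiety and low anxiety libraries. In the low anxiety library that limit lies above the neuronal level, so a difference there was not detectable at this depth. A small vascular cluster of 20, 31 and 39 nuclei, mixing endothelial and mural markers, is not in the plot. Its values are given where they stand beside the leading class. It also held RNA of spiny neuron markers. Penk stood there at 186, 205 and 76.8 CPM and Ppp1r1b at 674, 74.6 and 115 CPM in the urolithin A, high anxiety and low anxiety libraries. The part of this RNA in the levels given for the cluster was not tested.

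**Figure D1:**
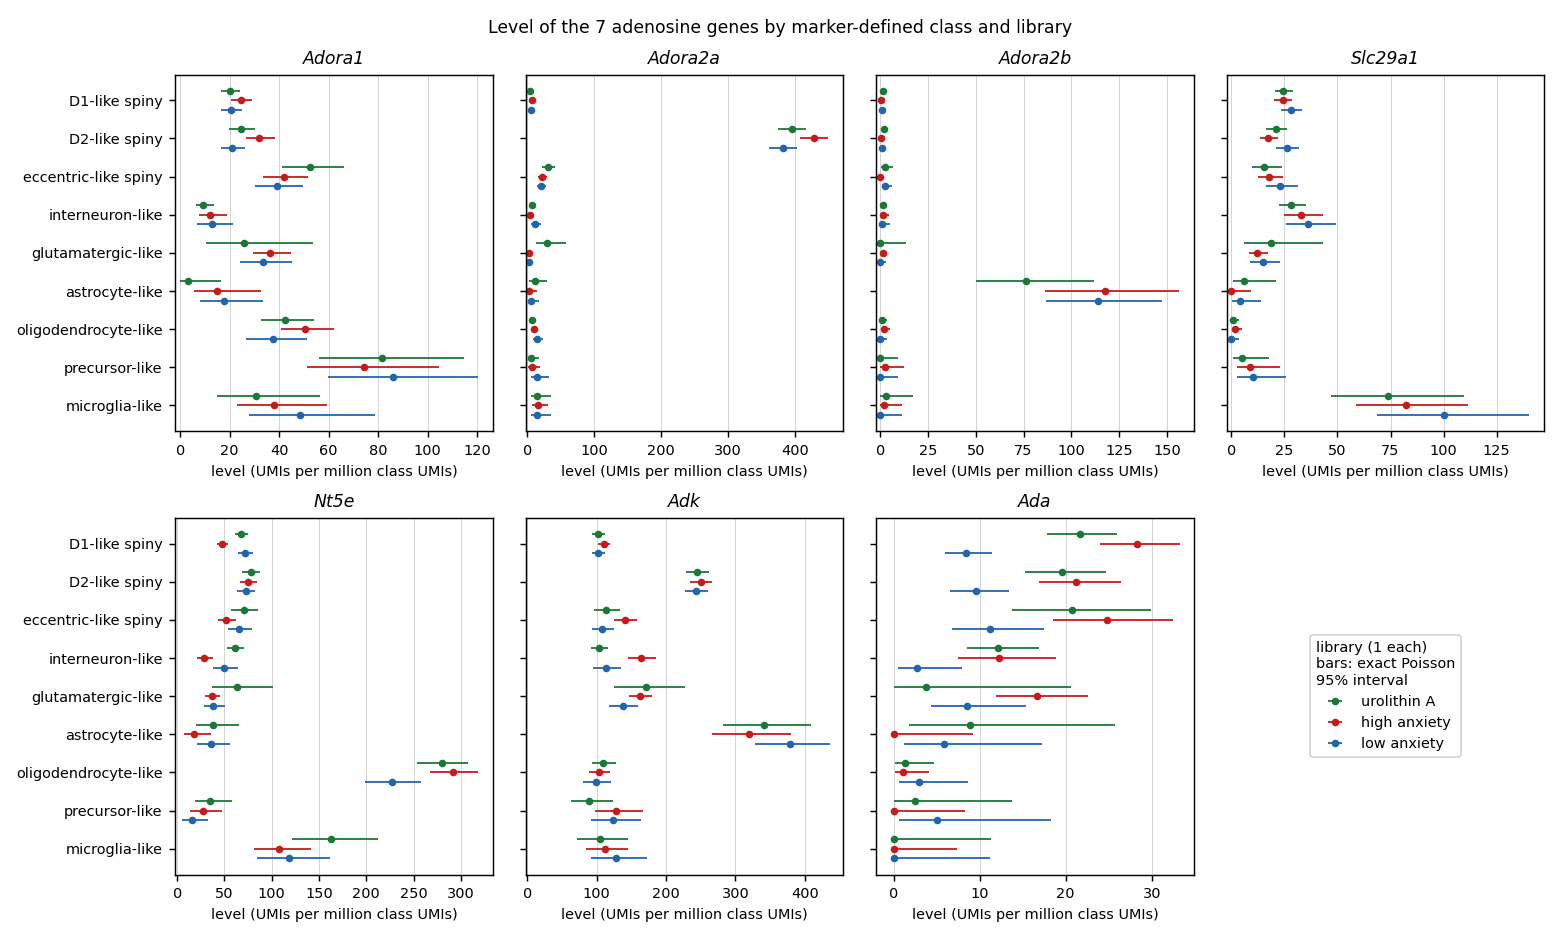
Level of each gene in CPM (horizontal axis, a scale of its own per gene) in 9 marker-defined classes, for the urolithin A, high anxiety and low anxiety libraries from top to bottom within each class. Points are the level of 1 library and bars its exact Poisson 95% interval. Adora2a stands apart in D2-like neurons and Adora2b in astrocyte-like cells, and for Ada the low anxiety point lies lowest in all 3 spiny neuron classes.

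In D1-like neurons high anxiety was set against low anxiety first, the comparison that asks what differs between the anxiety groups. 5 of the 7 genes were measured there, of which 1 was past 1.5-fold higher (Ada) and 1 past 1.5-fold lower (Nt5e). Over all 7485 genes measured in that comparison, 2.15% were past 1.5-fold higher and 2.87% past 1.5-fold lower. Since Ada was chosen in this contrast, nothing is read from its count. The 3 others, Adora1, Slc29a1 and Adk, had log2 ratios between -0.21 and 0.26, and all of their intervals included 0.

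**Figure D2:**
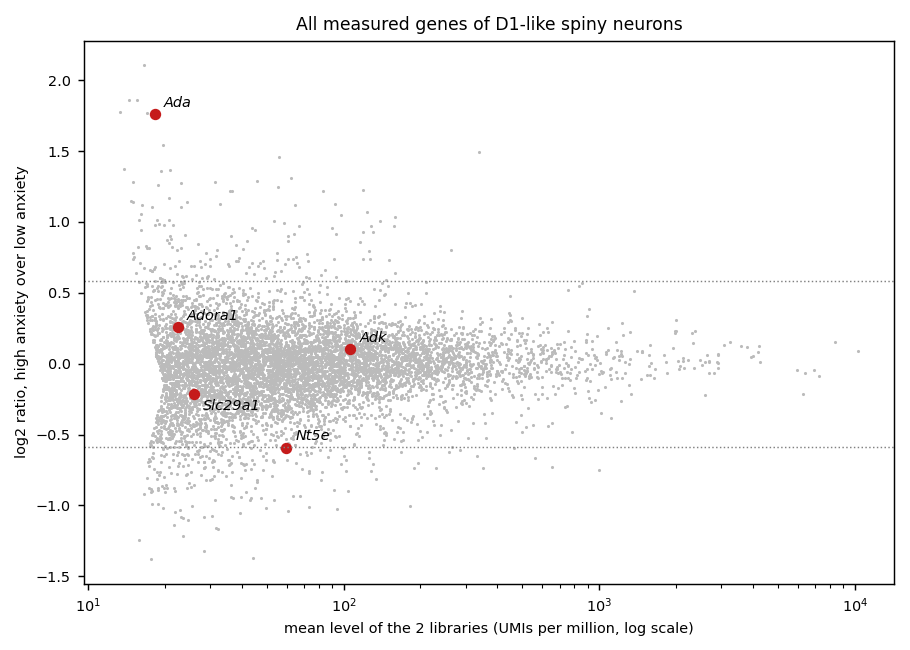
Log2 ratio of high anxiety over low anxiety in D1-like neurons (vertical axis) against the mean level of the 2 libraries (horizontal log axis, CPM) for the 7485 measured genes. Red points are the 5 measured adenosine genes and dotted lines mark 1.5-fold; Ada lies at 1.76 near the upper edge of the cloud, Nt5e at -0.59 on the lower line.

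Nt5e makes extracellular adenosine. In D1-like neurons it had 354, 252 and 343 UMIs in the urolithin A, high anxiety and low anxiety libraries, which are 67.8, 47.6 and 71.7 CPM. The high anxiety library was the low one, and the other two lay close together. The log2 ratio was -0.59 for high anxiety over low anxiety (95% counting interval -0.83 to -0.35), just past the 1.5-fold threshold, and the scaling by the median of gene ratios left it just short, at -0.58. For urolithin A over high anxiety it was 0.51 (0.27 to 0.75), short of 1.5-fold, and for urolithin A over low anxiety -0.08 (-0.30 to 0.14).

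The same order of libraries held in each of the 3 D1-like clusters for the contrast of high with low anxiety. In cluster 1 Nt5e stood at 70.1, 41.1 and 69.3 CPM in the urolithin A, high anxiety and low anxiety libraries. In cluster 3 the values were 65.6, 53.4 and 79.7 CPM, and in cluster 8, led by Nmb and Htr4, 65.7, 46.2 and 64.2 CPM. The D1 markers of cluster 8 lay on average slightly below those of all other nuclei (mean log2 fold -0.15). It took the D1 name because its D2 (-2.21) and eccentric (-0.72) means were lower still. When every D1-like nucleus was thinned to 2000 UMIs, 13.5% of nuclei in the urolithin A library, 8.74% in the high anxiety library and 13.1% in the low anxiety library kept an Nt5e UMI, so the low value was also there at equal depth.

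Outside D1-like neurons Nt5e was lowest in the high anxiety library in some classes and not in others. In D2-like neurons it stood at 77.9, 74.7 and 72.3 CPM in the urolithin A, high anxiety and low anxiety libraries, with a high over low anxiety log2 ratio of 0.05 (-0.20 to 0.30). In interneuron-like nuclei it had 176, 47 and 55 UMIs (61.1, 28.7 and 49.7 CPM), and the urolithin A library was higher than the high anxiety library by 1.09 on the log2 scale (0.62 to 1.59). That ratio was above 0 in each of the 3 interneuron-like clusters. It was 1.17 in the cluster led by Crh, 0.89 in the Pthlh cluster and 0.47 in the Sst cluster, with only the first interval clear of 0. Eccentric-like neurons had 70.2, 52.0 and 65.6 CPM in the same order of libraries. Their high over low anxiety ratio was -0.34 (-0.73 to 0.06), and urolithin A over high anxiety was 0.43 (0.02 to 0.85). Cluster 18 of this class held 16, 10 and 102 of its 236, 320 and 361 nuclei in the same order of libraries. The part of this imbalance in the values of the class, for any gene, was not tested. Of 13 neuron clusters, D1-like ones included, Nt5e was lower in high than in low anxiety in 10 and higher in 3. The 3 intervals below 0 were those of the D1-like clusters. Urolithin A was above high anxiety in 9 of 11 clusters and below in 2, with 4 intervals above 0.

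Oligodendrocyte-like cells, the class with the highest Nt5e level, had 279, 292 and 227 CPM in the urolithin A, high anxiety and low anxiety libraries. Here the low anxiety library was the lowest: the log2 ratio of high over low anxiety was 0.36 (0.14 to 0.59), the opposite sign to D1-like neurons, and it stayed short of 1.5-fold. In an unnamed cluster of oligodendrocyte markers led by Slc5a11, Rasgrp3 and Klk6, the levels were 235, 217 and 222 CPM. Microglia-like cells came second with 162, 108 and 118 CPM, on 53, 54 and 39 UMIs.

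The 250 bases before the annotated start of Nt5e and of Ada are shown because these were the genes past 1.5-fold in D1-like neurons. They were taken from RefSeq's promoters of build GRCr8, given 5′ to 3′ on the strand of the gene; capitals mark GC boxes (GGGCGG on either strand, so also CCGCCC). Nt5e lies on the plus strand, chr8:98150675-98150924, and Ada on the minus strand, chr3:172842284-172842533.
Nt5e: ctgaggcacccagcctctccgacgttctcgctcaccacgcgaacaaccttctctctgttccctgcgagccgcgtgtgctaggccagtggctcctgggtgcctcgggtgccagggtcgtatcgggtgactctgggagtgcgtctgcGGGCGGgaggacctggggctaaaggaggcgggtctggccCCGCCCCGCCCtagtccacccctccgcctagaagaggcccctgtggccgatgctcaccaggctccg
Ada: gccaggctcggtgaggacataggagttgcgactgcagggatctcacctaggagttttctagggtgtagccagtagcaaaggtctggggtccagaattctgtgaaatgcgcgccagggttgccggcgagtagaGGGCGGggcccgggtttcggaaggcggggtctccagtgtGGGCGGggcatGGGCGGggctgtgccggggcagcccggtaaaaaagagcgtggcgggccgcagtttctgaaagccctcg
Each of these windows held 3 GC boxes, a pair of which overlap by a base in Nt5e. Of the 6 adenosine genes with an entry (Adora2a had none), 5 held the motif, all but Adora1, against 30.5% of the 33469 promoters of the table. The TATA-box letters TATAAA or TTTATA were in 0 of the 6 and in 12.9% of all promoters. A match of letters is not a site in use.

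Adora1 encodes the inhibitory adenosine receptor. Its highest class was oligodendrocyte precursor-like cells, at 81.6, 74.4 and 86.0 CPM in the urolithin A, high anxiety and low anxiety libraries, a range that did not overlap that of any other class in the plot of levels by class. Interneuron-like nuclei stood at the low end with 9.38, 12.2 and 12.7 CPM, and astrocyte-like cells beside them with 1, 6 and 9 UMIs.

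Within spiny neurons the level of Adora1 depended on the cluster. It reached 82.9, 107 and 59.8 CPM in the urolithin A, high anxiety and low anxiety libraries in an unnamed spiny cluster led by Itgb6, Grpr and Casz1, whose highest-scoring marker list was D2. Eccentric-like neurons, the spiny type marked by Casz1 and Otof, had 52.5, 41.9 and 39.0 CPM. D1-like neurons had 19.9, 24.5 and 20.5 CPM.

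Adora1 was the gene past the threshold in D2-like neurons. It had 88, 122 and 72 UMIs there in the urolithin A, high anxiety and low anxiety libraries, or 24.6, 32.0 and 20.8 CPM, so the high anxiety library was the highest. The log2 ratio was 0.62 for high over low anxiety (0.19 to 1.06), a fold of 1.53, and -0.38 for urolithin A over high anxiety (-0.79 to 0.03). Of the 4 genes measured in that high over low anxiety comparison, 1 was past 1.5-fold higher and 0 lower, where 1.8% of all 6265 genes were higher and 2.44% lower. The ratio was 0.54 (0.03 to 1.07) in D2-like cluster 2, 0.93 (0.09 to 1.83) in cluster 4 and 0.84 (0.11 to 1.61) in the Grpr cluster. At equal depth, 5.47%, 6.15% and 4.12% of D2-like nuclei of the urolithin A, high anxiety and low anxiety libraries kept an Adora1 UMI.

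The Nmb and Htr4 cluster of D1-like neurons showed a like order for Adora1 on few counts. It had 9, 32 and 12 UMIs in the urolithin A, high anxiety and low anxiety libraries, or 8.45, 21.4 and 8.96 CPM. The other D1-like clusters did not show it: cluster 1 had 17.9, 18.4 and 14.3 CPM and cluster 3 had 30.4, 31.3 and 35.1 CPM. Over the 13 neuron clusters with at least 20 nuclei in both libraries, Adora1 was higher in high than in low anxiety in 8 and lower in 5, and 4 of the intervals lay above 0.

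Among named neuron classes Adora2a marked the D2-like one. D2-like neurons carried 1416, 1634 and 1318 UMIs in the urolithin A, high anxiety and low anxiety libraries, or 395, 428 and 381 CPM, and the next neuron class, eccentric-like neurons, had 30.3, 21.9 and 20.7 CPM. The Grpr cluster was alike to D2-like neurons in level, with 441, 513 and 390 CPM. D1-like neurons had 4.21, 7.17 and 5.02 CPM, at or below the 7.84, 10.7 and 14.7 CPM of oligodendrocyte-like cells. Whether the Adora2a counts of D1-like neurons are background was not tested. The share of nuclei with an Adora2a UMI was 2.67%, 3.95% and 2.87% in D1-like neurons, against 1.60%, 2.42% and 2.45% in oligodendrocyte-like cells of the urolithin A, high anxiety and low anxiety libraries. The median depth of the oligodendrocyte-like nuclei was 2059, 2178.5 and 1743.5 UMIs, below that of the D1-like nuclei given further on.

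Between groups Adora2a moved little. In D2-like neurons the log2 ratio of high over low anxiety was 0.17 (0.06 to 0.27), that of urolithin A over high anxiety -0.11 (-0.22 to -0.01), and that of urolithin A over low anxiety 0.05 (-0.06 to 0.16). The high anxiety excess was larger in D2-like cluster 2, with 426, 487 and 403 CPM in the urolithin A, high anxiety and low anxiety libraries, than in cluster 4, with 366, 344 and 339 CPM; the difference between the clusters was not tested. The vascular cluster had 128, 131 and 38.4 CPM on only 11, 7 and 3 UMIs.

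Adora2b encodes the low-affinity stimulatory receptor and was highest in astrocyte-like cells among the classes in the plot of levels by class. Astrocyte-like cells had 26, 47 and 58 UMIs of it in the urolithin A, high anxiety and low anxiety libraries, or 76.5, 118 and 114 CPM. In the other classes of the plot it stayed at or below 3.07 CPM. The vascular cluster had 11.6, 130 and 51.2 CPM in the urolithin A, high anxiety and low anxiety libraries on 1, 7 and 4 UMIs, with intervals that include the astrocyte-like level in the high anxiety and low anxiety libraries. The urolithin A library was lowest, with a log2 ratio over high anxiety of -0.62 (-1.37 to 0.10) that did not separate from 0, and high over low anxiety was 0.04 (-0.54 to 0.62). The low anxiety astrocyte-like cells also held more spiny neuron RNA than the others: Drd1 stood at 2.94, 10.0 and 37.4 CPM and Pde10a at 20.6, 42.5 and 212 CPM in the urolithin A, high anxiety and low anxiety libraries, and the part of this in the Adora2b values was not tested.

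Slc29a1, the equilibrative nucleoside transporter, was highest in microglia-like cells, with 73.6, 82.1 and 99.98 CPM in the urolithin A, high anxiety and low anxiety libraries on 24, 41 and 33 UMIs. Interneuron-like nuclei followed with 28.1, 33.0 and 36.2 CPM and D1-like neurons with 24.5, 24.2 and 28.0 CPM. Oligodendrocyte-like cells were nearly free of it, with 1, 3 and 0 UMIs.

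In D2-like neurons Slc29a1 stood at 20.9, 17.3 and 26.0 CPM in the urolithin A, high anxiety and low anxiety libraries, and high over low anxiety was -0.59 (-1.07 to -0.12). With 75, 66 and 90 UMIs it did not reach the 100 UMIs required. The low anxiety library was the highest in all 4 neuron classes compared, and high anxiety was below low anxiety in 10 of 13 neuron clusters, though 1 interval alone lay below 0.

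Adk encodes the kinase that returns adenosine to AMP and, in adult brain, is known chiefly from astrocytes. Astrocyte-like cells had 341, 320 and 379 CPM in the urolithin A, high anxiety and low anxiety libraries, the highest of the classes in the plot of levels by class. The vascular cluster lay in the same range, with 349, 373 and 269 CPM on 30, 20 and 21 UMIs. D2-like neurons had 245, 250 and 243 CPM, the highest of the neuron classes. D1-like neurons were lower in every library, with 102, 110 and 102 CPM, and the ranges of the D2-like and D1-like classes did not overlap.

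Adk hardly differed between groups in D1-like and D2-like neurons. In D1-like neurons high over low anxiety was 0.11 (-0.07 to 0.28) and in D2-like neurons 0.04 (-0.09 to 0.18). Eccentric-like neurons had 114, 141 and 108 CPM in the urolithin A, high anxiety and low anxiety libraries. Their high over low anxiety ratio was 0.38 (0.11 to 0.66), and urolithin A over high anxiety was -0.31 (-0.60 to -0.02). In cluster 7, the largest of the class, these ratios were 0.34 (0.04 to 0.65) and -0.28 (-0.59 to 0.03).

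Interneuron-like nuclei were where Adk passed the threshold. Most of them were of the Crh cluster, whose interneuron name did not hold with finer clusters, as given below. They had 298, 269 and 126 UMIs in the urolithin A, high anxiety and low anxiety libraries, or 104, 164 and 114 CPM, so the high anxiety library was the highest. The log2 ratio was -0.67 for urolithin A over high anxiety (-0.91 to -0.42), 0.53 for high over low anxiety (0.22 to 0.84) and -0.14 for urolithin A over low anxiety (-0.44 to 0.17). Urolithin A over high anxiety was -0.74, -0.56 and -0.77 in the Crh, Pthlh and Sst clusters. High over low anxiety was 0.83 (0.43 to 1.23) in the Crh cluster and 0.76 (-0.49 to 2.11) in the Sst cluster, but -0.27 (-0.85 to 0.32) in the Pthlh cluster, where the low anxiety library was the highest.

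Of the 2 genes measured in interneuron-like nuclei for urolithin A over high anxiety, Nt5e was past 1.5-fold higher and Adk past 1.5-fold lower. This class had wide spread in general: 4.92% of 5994 genes were higher and 3.07% lower. For high over low anxiety, 1 gene (Adk) was measured and 0 were past the threshold, beside 3.99% of all genes higher and 3.91% lower. For urolithin A over low anxiety, 2 were measured and 0 were past it, beside 3.16% higher and 1.42% lower. The class held 367, 185 and 164 nuclei in the urolithin A, high anxiety and low anxiety libraries. Of these, 232, 98 and 100 were in the Crh cluster. In the whole class the 8 D2 markers summed to 318, 198 and 366 CPM, with 0, 1 and 0 of them at 0, and their part in the result was not tested. With finer clusters (Leiden resolution 2) the Crh nuclei lost the interneuron name. Their leading genes then included the glutamatergic marker Slc17a6, and their best-scoring marker list was the eccentric one. The clusters that kept the interneuron name held 35, 19 and 27 low anxiety nuclei. The class was then under the 100 nuclei required and was not compared, so Nt5e and Adk were not measured again in it.

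**Figure D3:**
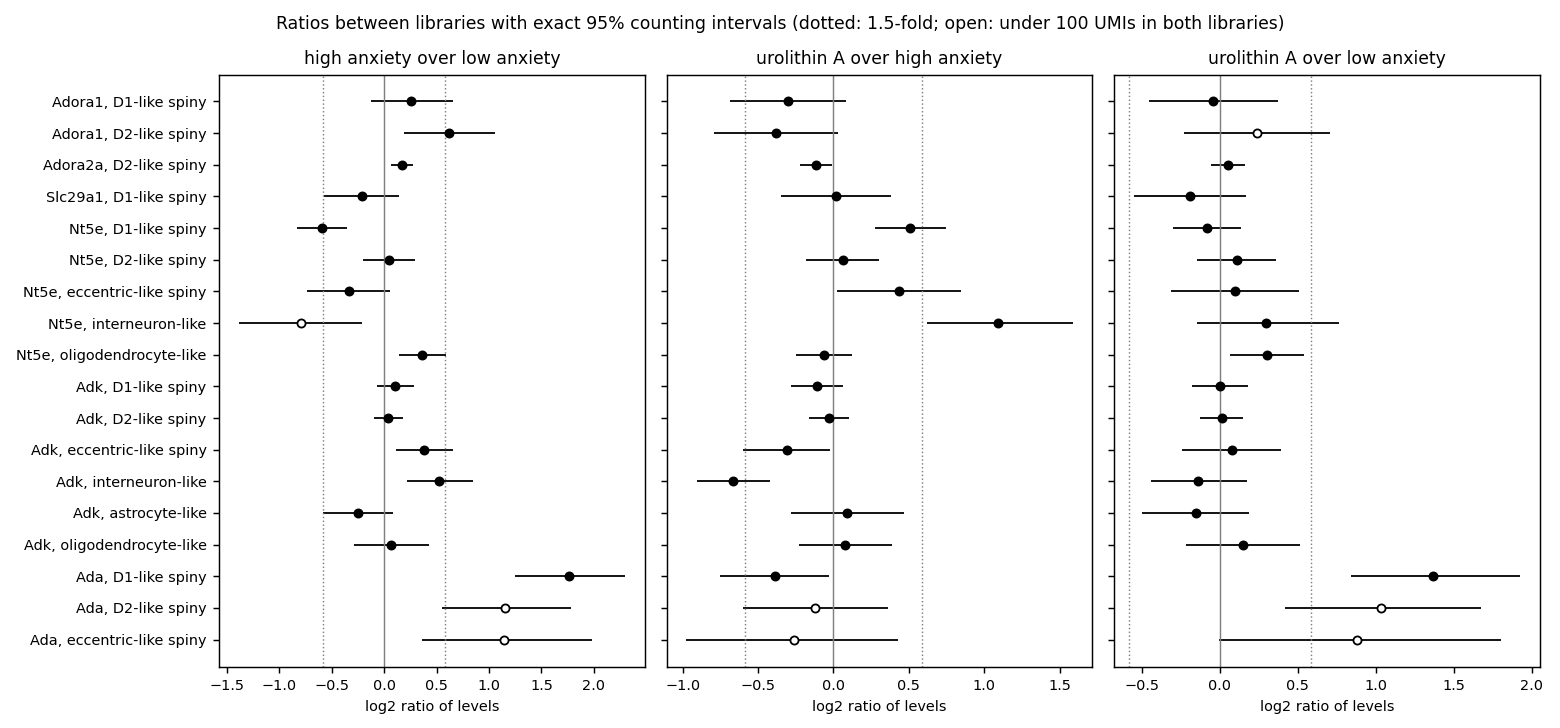
Log2 ratios of levels between libraries (horizontal axes) for the genes and classes with at least 100 UMIs in 1 library, plus Ada in D2-like and eccentric-like neurons, in the 3 comparisons. Points are ratios, bars exact 95% counting intervals, dotted lines 1.5-fold, and open points mark pairs under 100 UMIs in both libraries. Ada lies to the right of the other genes in both panels against low anxiety, and Nt5e and Adk of interneuron-like nuclei stand on opposite sides in the panel of urolithin A over high anxiety.

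Ada removes adenosine by deamination. In D1-like neurons, where it was chosen, it had 113, 150 and 40 UMIs in the urolithin A, high anxiety and low anxiety libraries, or 21.6, 28.3 and 8.37 CPM. The low anxiety library was the low one. High over low anxiety was 1.76 on the log2 scale (1.248 to 2.30), a fold of 3.38. Its rank of 6 among 7485 measured genes describes the choice of Ada and is no support for it. Urolithin A over low anxiety was 1.37 (0.84 to 1.93), and urolithin A over high anxiety was -0.39 (-0.75 to -0.03), short of 1.5-fold.

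The counts were spread over many nuclei. An Ada UMI was found in 101 of 750, 124 of 659 and 37 of 766 D1-like nuclei of the urolithin A, high anxiety and low anxiety libraries, or 13.5%, 18.8% and 4.83%. The median depth of these nuclei was 6665, 7682 and 6018 UMIs and the mitochondrial share of their UMIs 1.12%, 1.00% and 0.843%. Thinned to 2000 UMIs, 5.23% (95% binomial interval 3.74 to 7.08), 7.21% (5.34 to 9.47) and 1.05% (0.455 to 2.06) kept an Ada UMI, and the order of the libraries was the same at equal depth. This used the 746, 652 and 761 nuclei that were deep enough. The same thinned share in oligodendrocyte-like cells was 0.272%, 0.218% and 0.549% of 368, 458 and 182 nuclei.

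Markers of other cell types were summed in the D1-like class. The 6 glutamatergic markers stood at 89.8, 113 and 86.6 CPM in the urolithin A, high anxiety and low anxiety libraries, with 3, 1 and 1 of them at 0. Glutamatergic-like nuclei had 3.71, 16.6 and 8.58 CPM of Ada themselves, on 1, 41 and 11 UMIs. That is below the D1-like level in every library but low anxiety. Summed oligodendrocyte markers stood at 151, 144 and 127 CPM and summed microglia markers at 66.4, 61.4 and 60.2 CPM in the D1-like class, with 0 of the 8 markers of either list at 0 in any library. Summed astrocyte markers stood at 17.0, 22.7 and 29.3 CPM, with 0, 1 and 0 of 8 at 0. Astrocyte-like cells themselves had 3, 0 and 3 Ada UMIs, or 8.82, 0 and 5.90 CPM, and 2.91%, 0% and 1.69% of 103, 118 and 118 deep enough nuclei kept one when thinned. The part of these marker levels in the Ada values was not tested.

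The 3 D1-like clusters each gave the same picture. Ada stood at 20.3, 30.04 and 9.0 CPM in cluster 1, at 23.7, 25.8 and 6.2 CPM in cluster 3 and at 21.6, 30.1 and 10.5 CPM in the Nmb and Htr4 cluster, in the order urolithin A, high anxiety and low anxiety.

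Neurons that the choice of Ada did not use lay on the same side. D2-like neurons had 70, 81 and 33 UMIs in the urolithin A, high anxiety and low anxiety libraries, or 19.5, 21.2 and 9.55 CPM. High over low anxiety was 1.15 (0.55 to 1.78) and urolithin A over low anxiety 1.03 (0.42 to 1.68), on counts below the 100 UMIs required. Eccentric-like neurons had 28, 52 and 19 UMIs (20.7, 24.8 and 11.2 CPM) and a ratio of 1.14 (0.36 to 1.98) for high over low anxiety. Interneuron-like nuclei had 35, 20 and 3 UMIs (12.2, 12.2 and 2.71 CPM), and the ratio of high over low anxiety was 2.17 (0.42 to 4.56). These classes come from the same 3 libraries as the D1-like neurons, so they are no replicate of the group difference.

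Without the 3 D1-like clusters, whose values chose the gene, 10 neuron clusters had at least 20 nuclei in both the high and the low anxiety library. Ada was higher in high than in low anxiety in all 10, and 4 of the intervals lay above 0; in eccentric-like cluster 16 the levels were nearly equal, on 3 against 2 UMIs. Urolithin A was above low anxiety in 8 of 8 such clusters, with 3 intervals above 0, against the same low anxiety library. Between urolithin A and high anxiety, 4 of the 8 were higher and 4 lower with urolithin A, and 0 intervals were clear of 0.

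**Figure D4:**
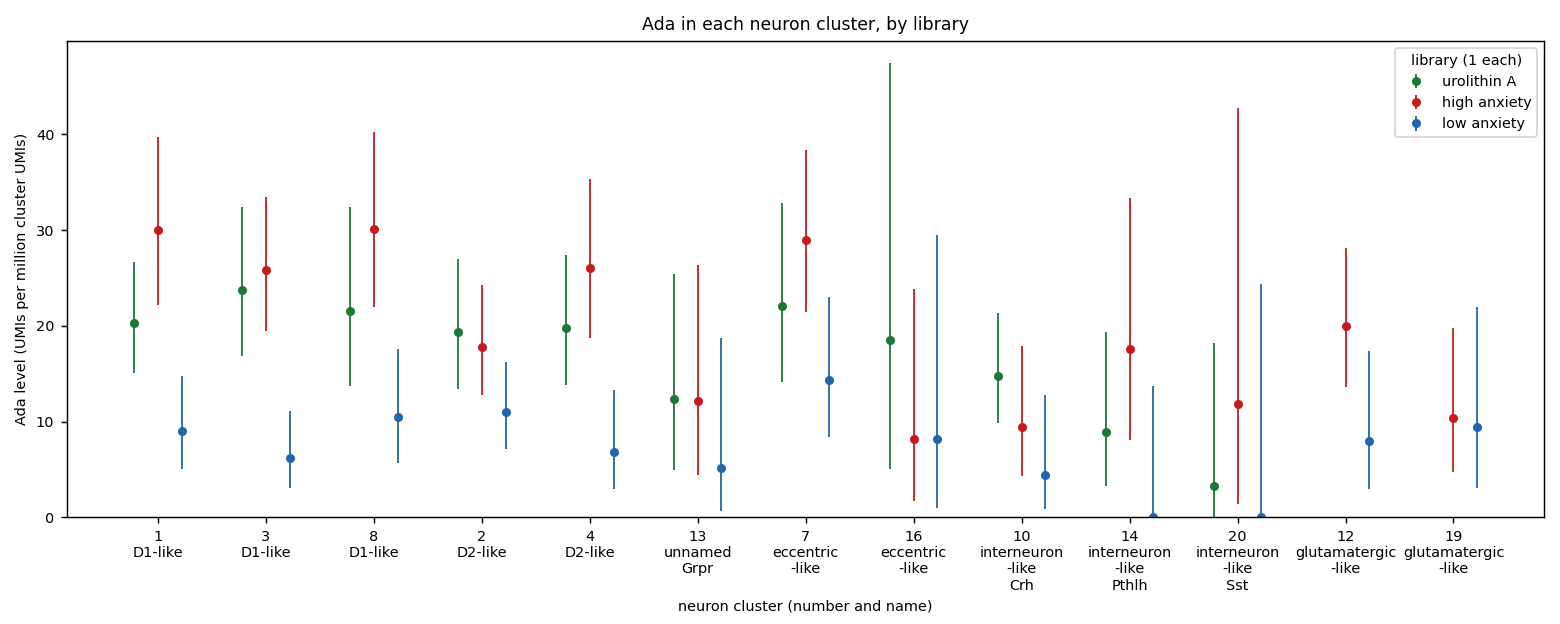
Ada level in CPM of the cluster (vertical axis) in the 13 neuron clusters compared (horizontal axis), for the urolithin A, high anxiety and low anxiety libraries from left to right. Points are 1 library each with exact Poisson 95% intervals, and points of libraries with under 20 nuclei are left out. The low anxiety point is never above the high anxiety point; clusters 1, 3 and 8 are those whose values chose Ada.

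In D1-like neurons, urolithin A over high anxiety had 5 of the 7 genes measured and 0 past 1.5-fold in either direction, where 1.22% of all genes were higher and 0.876% lower. Urolithin A over low anxiety had 5 measured, with Ada past 1.5-fold higher and 0 lower, beside 2.57% and 1.39% of all genes. These low anxiety values were part of the contrast that chose Ada, so nothing is read from its count here either. In D2-like neurons, urolithin A over high anxiety had 4 measured and 0 past the threshold, beside 1.59% higher and 0.636% lower over all genes, and urolithin A over low anxiety had 3 measured and 0 past it, beside 2.45% higher and 1.17% lower. The comparisons share libraries, so their values are not independent of each other.

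The wider pathway was described in 5 lists of 90 genes, 86 of which were in the files. Extracellular nucleotide breakdown and adenosine formation had 10 of 23 listed genes measured in D1-like neurons for high over low anxiety. 0 of these were past 1.5-fold in either direction, and their median log2 ratio was -0.06 beside -0.01 over all measured genes. In adenosine removal and purine salvage, 6 of 17 were measured and 1 was higher: Ak3, a mitochondrial adenylate kinase, at 90.9, 69.5 and 40.4 CPM in the urolithin A, high anxiety and low anxiety libraries. It was higher in high than in low anxiety by 0.78 (0.53 to 1.04) in D1-like neurons and by 0.81 (0.51 to 1.11) in D2-like neurons, and in oligodendrocyte-like cells by 0.65 (0.42 to 0.87). Over all genes measured for high over low anxiety in D1-like neurons, 2.15% were past 1.5-fold higher and 2.87% lower. The shares were 1.8% and 2.44% in D2-like neurons and 2.85% and 0.741% in oligodendrocyte-like cells.

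Among nucleoside transport and ATP release genes, 2 of 11 were measured in D1-like neurons for high over low anxiety. Slc28a2, a concentrative nucleoside transporter, was lower by the threshold, with 86 UMIs in high anxiety and 117 in low anxiety (log2 ratio -0.59, -1.01 to -0.18). Among other purine receptors 3 of 16 were measured and 2 were higher, beside 2.15% of all genes. P2ry14, a receptor for UDP-sugars, stood at 225, 188 and 114 CPM in the urolithin A, high anxiety and low anxiety libraries, a high over low anxiety ratio of 0.73 (0.58 to 0.88). P2ry12, the ADP receptor known from microglia, stood at 24.3, 25.3 and 12.8 CPM (0.99, 0.54 to 1.45), while the whole microglia marker list, which includes it, stood at the 66.4, 61.4 and 60.2 CPM given above.

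The list of adenosine receptor coupling genes of the striatum had 17 of 19 measured and 0 past the threshold for high over low anxiety in D1-like neurons, and 16 measured and 0 past it in D2-like neurons. For urolithin A over high anxiety, Gnas, the stimulatory G-protein alpha subunit, was higher in D1-like neurons by 0.73 (0.46 to 1.00) and in D2-like neurons by 0.87 (0.67 to 1.07) where it stood at 157, 85.7 and 111 CPM in the urolithin A, high anxiety and low anxiety libraries. Gnai1, an inhibitory alpha subunit, was higher in D2-like neurons by 0.79 (0.53 to 1.05). Over all genes measured for urolithin A over high anxiety, 1.22% were past 1.5-fold higher in D1-like neurons and 1.59% in D2-like neurons. P2ry1, a further ADP receptor, was lower in high than in low anxiety in D2-like neurons by the ratio -0.61 (-0.96 to -0.27) and higher with urolithin A than in high anxiety by 0.68 (0.34 to 1.02).

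By Pearson correlation of log2(CPM + 1) over 24 sums (8 classes in 3 libraries), the genes most like each of the 7 among 12416 compared were named as a description; the sums share libraries and depth. Ada was most like C16h4orf47 (r of 0.928), Rps6ka6 (0.914) and Rufy2 (0.8997). Adora2a was most like Ubash3a (0.893), Drd2 (0.843) and the enkephalin precursor Penk (0.811). Adora2b was most like Slc14a1 (0.954), a urea transporter, and Slc29a1 most like Fmnl1 (0.968). Nt5e was most like Mast3 (0.886), Adk most like Pdlim3 (0.867) and Adora1 most like Parp2 (0.822).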

How the data were processed

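The deposited matrices hold raw counts of UMIs per gene and nucleus, made by the authors with Cell Ranger 7.1.0 on build mRatBN7.2 from a Chromium kit of version 3.1, per the submitters' processing notes and the labels. Barcodes numbered 3739 for urolithin A, 4066 for high anxiety and 3619 for low anxiety, with 19162530, 22095390 and 16728049 UMIs. Those with 500 genes or more and 5% or less of mitochondrial UMIs were kept (3520, 3810 and 3476). The 99, 116 and 97 nuclei with the highest Scrublet scores were then removed as likely doublets. Their number was set by an assumed rate of 0.8% per 1000 nuclei. Nuclei were clustered with scanpy 1.11.5 (2000 variable genes without the 7 described genes, 30 principal components, 15 neighbours, Leiden resolution 1), and the 25 clusters were named from marker lists, except 3 that stayed unnamed. Names were rebuilt and may differ from the study's. Classes with at least 100 nuclei per library were compared. UMIs were summed per class and library; with 1 library per group there was no test, and exact Clopper-Pearson and Poisson intervals at 95% cover counting error only. A limit for a count of 0 is 3 counts. The ratio code was tested on simulated data. Every described gene is named; of each pathway list, the genes with the largest ratios are named. The genes and lists were chosen with earlier results of these data known. No correction for free RNA was made here: Penk, a D2 neuron gene, stood at 24.2, 21.9 and 71.6 CPM in oligodendrocyte-like cells of the urolithin A, high anxiety and low anxiety libraries. Glutamatergic-like neurons (21, 198 and 99 nuclei) were not compared. Alternatives were scaling, UMI minimum, nucleus filter, doublets, clustering, largest cluster, equal weight of nuclei and leaving out the top nucleus.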

Additional observations from a re-analysis of the deposited data

Results flagged for a closer look

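Nt5e differed between classes in the comparison of high anxiety with low anxiety: it was lower in D1-like neurons (log2 ratio -0.59, interval -0.83 to -0.35) and higher in oligodendrocyte-like cells (0.36, 0.14 to 0.59), a difference of -0.956 between the classes on the log2 scale. Each value rests on 1 library per group, and the difference was not tested.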

How the results depend on the processing

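No paired analysis was possible because each group is 1 library. In the comparison of high with low anxiety 3 pairs of gene and class were past 1.5-fold (Ada and Nt5e in D1-like neurons, Adora1 in D2-like neurons), in urolithin A over high anxiety 2 (Nt5e and Adk in interneuron-like nuclei) and in urolithin A over low anxiety 1 (Ada in D1-like neurons). A minimum of 50 UMIs gave 7 for high over low anxiety and 2 for urolithin A over low anxiety; a minimum of 200 UMIs gave 1, 1 and 0 in the order of the comparisons above. Leiden resolution 2 gave 0 for urolithin A over high anxiety. There the interneuron-like class had under 100 low anxiety nuclei and was not compared. Urolithin A over low anxiety had 0 when nuclei needed 1000 genes or more and 1% or less of mitochondrial UMIs, and 0 with the largest cluster of each class, where Ada had under 100 UMIs. Over 12 alternatives of 52 ratios, 610 of 616 values moved by less than their counting interval, 6 moved by more and 0 reversed. Ada in D1-like neurons ranged over 1.67 to 2.05 for high over low anxiety, Nt5e there over -0.76 to -0.58, and Adora1 in D2-like neurons over 0.54 to 0.73. An equal mix of the clusters of a class was added after seeing the data and gave 1.75 for Ada. Counts of all genes past the threshold moved by over 1.5 times in 59 of 210 cases, mostly with the UMI minimum: in D1-like neurons those higher in high anxiety numbered 80 to 303 beside 161, and those lower 91 to 330 beside 215. Depth limits Ada, Adora1, Adora2b and Slc29a1 most, whose class sums were often under 100 UMIs.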

Other observations

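Interneuron-like nuclei also differed in other genes of the pathway lists. Over all genes measured in this class for urolithin A over high anxiety, 4.92% were past 1.5-fold higher and 3.07% lower. For high over low anxiety these shares were 3.99% and 3.91%. Enpp2, the secreted lysophospholipase autotaxin, stood at 29.2, 65.3 and 104 CPM in the urolithin A, high anxiety and low anxiety libraries, with log2 ratios of -1.16 (-1.59 to -0.74) for urolithin A over high anxiety and -0.67 (-1.06 to -0.28) for high over low anxiety. Gda, guanine deaminase, was higher with urolithin A than in high anxiety by 1.13 (0.64 to 1.66), on 162 UMIs against 42. Gnas, the stimulatory G-protein alpha subunit, had 523, 308 and 627 CPM in the urolithin A, high anxiety and low anxiety libraries, with -1.02 (-1.19 to -0.86) for high over low anxiety. These genes were named by the rule for the pathway lists; the share of the Crh cluster differs between the libraries of this class, and its part was not tested.

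The genes next to Ada in the RefSeq order were looked up after the Ada values were seen. In D1-like neurons the log2 ratio of high over low anxiety was 0.10 (-0.05 to 0.25) for Pkig, -0.43 (-0.58 to -0.27) for Serinc3 and 0.04 (-0.53 to 0.62) for Ttpal on one side of Ada. On the other side it was -0.08 (-0.45 to 0.30) for Rims4, and Ccn5 and Kcnk15 had at most 2 UMIs in any library.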
